A study of Mus musculus with 8 samples.

Results

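The 8 genes described here are markers of enteric glia: Gfap, S100b, Sox10, Foxd3, Erbb3, Cdh19, Sox2 and Gpm6b. They were taken by gene name from the 53801 genes listed in the series and were chosen by their names, with their measured levels in the groups and in pairs of equal replicate number already known. That difference is therefore given as a description, with no test.

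The series compared sorted stromal cells of the small intestine of LTβR-YFP mice, all of which had received indomethacin, a cyclooxygenase inhibitor that ulcerates this tissue. The cells came from the ulcers and lacked CD45, which marks leukocytes, and CD31, which marks endothelium. The 4 YFP+ libraries hold cells of this gate that carried the yellow fluorescent reporter, and the 4 YFP- libraries hold cells of the same gate and treatment that did not. Libraries were numbered 1 to 4 in each group, and the labels do not say whether they are separate animals, so the spread behind each p-value is that between these samples and may be technical. The sources used here do not give the age of the mice or how the reporter is driven relative to Ltbr, the lymphotoxin beta receptor gene.

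Enteric glia are neural crest derived cells that surround the neurons of the gut's plexuses and also lie in the mucosa, close to the epithelium. They lack both CD45 and CD31, so a sort on these markers keeps them beside fibroblasts, muscle cells and pericytes. Their precursors depend on the transcription factor SOX10 and on neuregulin signalling through ERBB3. Mature enteric glia are usually recognised by the filament protein GFAP and the calcium-binding protein S100B.

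Promoters are shown for Gfap, whose groups did not overlap, for Foxd3, which had counts in YFP- libraries alone, and for Gpm6b, which was by far the most abundant of the 8 genes and nearly equal in both groups. RefSeq promoter windows of 300 bases, 250 before to 50 after the gene start, were found for 5 of the 8 genes on GRCm38.p6. These are RefSeq starts and can differ from the gene bounds given below, which come from GENCODE. The Gfap window lies inside its GENCODE bounds, and the Sox2 window ends before those of Sox2 begin. Each window was searched on both strands for ACAAAG and ACAATG, core sequences bound by SOX proteins, and matches stand in capitals. The Gfap window spans chr11:102897151-102897450 on the minus strand, the Foxd3 window chr4:99656049-99656348 on the plus strand, and the Gpm6b window chrX:166238693-166238992 on the plus strand.
Gfap: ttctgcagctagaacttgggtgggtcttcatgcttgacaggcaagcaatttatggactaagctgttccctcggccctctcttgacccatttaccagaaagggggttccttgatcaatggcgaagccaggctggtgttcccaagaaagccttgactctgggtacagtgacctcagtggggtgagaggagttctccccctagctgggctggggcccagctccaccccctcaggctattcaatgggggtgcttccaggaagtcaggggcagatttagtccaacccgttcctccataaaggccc
Foxd3: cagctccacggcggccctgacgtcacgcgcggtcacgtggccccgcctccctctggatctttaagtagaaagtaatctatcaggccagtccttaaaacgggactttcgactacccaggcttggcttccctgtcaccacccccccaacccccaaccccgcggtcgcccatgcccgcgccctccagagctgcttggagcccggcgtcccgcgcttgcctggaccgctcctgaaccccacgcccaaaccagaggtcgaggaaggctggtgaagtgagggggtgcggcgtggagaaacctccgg
Gpm6b: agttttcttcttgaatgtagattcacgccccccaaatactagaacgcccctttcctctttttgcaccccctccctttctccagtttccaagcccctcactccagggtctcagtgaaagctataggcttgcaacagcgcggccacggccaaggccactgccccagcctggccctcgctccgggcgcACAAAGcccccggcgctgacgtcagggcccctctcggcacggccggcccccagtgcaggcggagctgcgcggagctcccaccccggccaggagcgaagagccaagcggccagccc

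The Gfap and Foxd3 windows hold neither motif. The Gpm6b window holds ACAAAG once, starting at position -65 from the gene start. The S100b window (chr10:76253586-76253885, plus strand) has no match, and that of Sox2 (chr3:34649745-34650044, plus strand) holds ACAAAG at position -206. Of 27025 promoters of this length, 18.7% hold ACAAAG, 12.8% hold ACAATG and 28.8% hold either, beside 2 of the 5 windows here. The windows also differ in their number of CpG dinucleotides. Gfap and S100b have 3 each, fewer than the median promoter with 7, whereas Gpm6b has 20, Foxd3 25 and Sox2 27.

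Library totals ran from 12481608 to 29385718 counts, and 3 counts, used here as the detection floor, correspond to 0.101 to 0.255 CPM depending on the library. CPM is a gene's count scaled to the library total with TMM factors. Of the cell type marker lists, fibroblast markers were the most abundant in every library, with summed levels of 22540 to 36370 CPM in YFP+ and 27540 to 53760 CPM in YFP- libraries. Transcripts of the genes used for the gate were detected. The leukocyte gene Ptprc, which encodes CD45, stood at 2.08 to 12.1 CPM in YFP+ and 0.875 to 4.67 CPM in YFP- libraries, and Pecam1, which encodes CD31, at 11.1 to 45.7 and 11.3 to 46.9 CPM. Of the 8 glial markers, 7 had a count in at least 1 library and 5 passed the filter on low counts and were tested among 15945 genes: Gfap, Sox10, Erbb3, Cdh19 and Gpm6b. In bulk RNA, fewer cells of a type and less RNA per cell cannot be told apart.

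Gfap encodes the intermediate filament of astrocytes and enteric glia (chromosome 11, 102887336 to 102900912, minus strand). It was nearly absent from YFP+ cells, with 0, 4, 7 and 7 counts in YFP+ replicates 1 to 4, against 172, 43, 60 and 11 counts in YFP- replicates 1 to 4. As levels these were 0, 0.276, 0.279 and 0.277 CPM in YFP+ libraries, against 9.56, 3.66, 2.02 and 0.556 CPM in YFP- libraries. Every YFP+ library lay below every YFP- library, and Gfap was the sole marker of the set of which this holds. Over all genes tested, 0.859% had groups apart in this direction. Gfap passed the filter on low counts through its YFP- libraries alone, and the markers were chosen on this contrast. That share therefore does not measure how unusual the separation of Gfap is. The means were 0.208 ± 0.139 CPM in YFP+ and 3.95 ± 3.95 CPM in YFP- cells (SD, n = 4), a level 19.0-fold lower in YFP+ cells. The log2 fold change was -4.25 ± 1.04 (SE). YFP- replicate 1 held 60.1% of the YFP- counts. Without replicate 1 in both groups the level was still 7.49-fold lower in YFP+ cells.

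S100b encodes a calcium-binding protein of glia and Schwann cells (chromosome 10, 76253853 to 76261159, plus strand). It had 0 counts in all 4 YFP+ libraries, against 10, 0, 3 and 2 counts in YFP- replicates 1 to 4. The level in YFP- cells was 0.189 ± 0.249 CPM (SD, n = 4). Set against a floor of 3 counts over the YFP+ group, it was at least 5.93-fold lower in YFP+ cells, with the YFP- counts taken as they stand. This bound was not computed without replicate 1. With 15 counts in all, of which 10 lay in YFP- replicate 1, S100b was too low to be tested. Annotated genes on the opposite strand, Gm26668 for Gfap and Dip2a for S100b, overlap these genes without sharing exonic bases.

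Of the transcription factors, Sox10 had enough counts for a fit. SOX10 is required for the survival of neural crest precursors and for glial fate (chromosome 15, 79154908 to 79165240, minus strand). Its counts were 1, 0, 20 and 5 in YFP+ replicates 1 to 4, against 70, 19, 63 and 8 in YFP- replicates 1 to 4. These correspond to 0.0344, 0, 0.799 and 0.198 CPM in YFP+ libraries, against 3.89, 1.62, 2.12 and 0.404 CPM in YFP- libraries. The YFP+ library was the lower in every pair of equal replicate number, but the groups overlapped, since YFP+ replicate 3 lay above YFP- replicate 4. Mean levels were 0.258 ± 0.371 CPM in YFP+ and 2.01 ± 1.45 CPM in YFP- cells (SD, n = 4), and the log2 fold change was -2.89 ± 1.08 (SE). The level was 7.79-fold lower in YFP+ cells over all libraries and 4.16-fold lower without replicate 1. Without YFP+ replicate 3, which held 20 of the 26 YFP+ counts, the log2 fold change was -4.50.

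Foxd3 encodes a forkhead factor of the early neural crest (chromosome 4, 99656299 to 99658622, plus strand, a gene of 1 exon). It had 0 counts in all 4 YFP+ libraries, against 4, 6, 16 and 0 counts in YFP- replicates 1 to 4. The YFP- level was 0.318 ± 0.256 CPM (SD, n = 4). By the same floor, and with the YFP- counts taken as they stand, the YFP+ level was at least 10.3-fold lower. Its highest library was YFP- replicate 3, not YFP- replicate 1, and it was too low to be tested. The microRNA gene Gm23366 shares 3.83% of its exonic bases on the same strand.

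Sox2 encodes a factor of neural progenitors that is also found in enteric glia (chromosome 3, 34650405 to 34652461, plus strand). It had 0 counts in all 8 libraries. The noncoding gene Sox2ot, in whose bounds Sox2 lies on the same strand, was detected in every library, with 79, 31, 42 and 20 counts in YFP+ and 25, 14, 29 and 17 counts in YFP- replicates 1 to 4. Their exons do not overlap. A count of 0 bounds Sox2 at 0.101 to 0.255 CPM in single libraries, for counting error only.

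Erbb3 and Cdh19 were also lower on average in YFP+ cells. Without replicate 1, however, Erbb3 was not lower in YFP+ cells, and Cdh19 differed little between the groups. Erbb3 encodes a neuregulin receptor that signals with ERBB2 (chromosome 10, 128567523 to 128589652, minus strand). Its levels were 0.963, 5.79, 1.36 and 2.33 CPM in YFP+ replicates 1 to 4, against 10.9, 1.96, 3.70 and 1.92 CPM in YFP- replicates 1 to 4. It was lower in the YFP+ library of pairs 1 and 3, by 11.4-fold and 2.73-fold, and higher in that of pairs 2 and 4, by 2.96-fold and 1.21-fold. The means were 2.61 ± 2.20 CPM in YFP+ and 4.63 ± 4.29 CPM in YFP- cells (SD, n = 4), with a log2 fold change of -0.85 ± 0.71 (SE). The difference was smaller than the spread between libraries, and the log2 fold change was 0.02 without YFP- replicate 1 and -1.58 without YFP+ replicate 2.

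YFP+ replicate 2, the library with the most Erbb3 among the YFP+ libraries, had 0 counts of Sox10. The same library had 9.37 CPM of the fatty acid hydroxylase Fa2h, 5.45 CPM of the transcription factor gene Tfap2a and 15.4 CPM of Cdh1, which encodes E-cadherin of epithelium. In the other YFP+ libraries Fa2h was at 0 to 0.435 CPM and Tfap2a at 0, while Cdh1 was at 15.4 CPM in YFP+ replicate 4 as well. The 12 epithelial markers together summed to 37.8 CPM in YFP+ replicate 2. In YFP+ replicate 4 they summed to 185.6 CPM, with Erbb3 at 2.33 CPM. Fa2h, Tfap2a and Cdh1 were chosen after their values were seen, and their part in the Erbb3 value was not tested.

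Cdh19 encodes a cadherin of Schwann cell precursors and glia (chromosome 1, 110888326 to 110977584, minus strand). It was at 0.138, 2.90, 1.20 and 1.54 CPM in YFP+ replicates 1 to 4, against 13.8, 2.89, 1.68 and 2.27 CPM in YFP- replicates 1 to 4. The libraries of replicate 1 were the extremes on both sides, with 4 counts in YFP+ and 248 in YFP-, and the other libraries differed little. Mean levels were 1.44 ± 1.14 CPM in YFP+ and 5.16 ± 5.77 CPM in YFP- cells (SD, n = 4), a log2 fold change of -1.86 ± 0.87 (SE). The level was 3.57-fold lower in YFP+ cells over all libraries, and 1.22-fold lower without replicate 1.

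Gpm6b encodes a membrane protein of the proteolipid family (chromosome X, 166238911 to 166388988, plus strand). It did not follow the other markers. Its levels were 269.6, 243.5, 327.0 and 253.9 CPM in YFP+ replicates 1 to 4, against 294.0, 232.8, 345.6 and 258.3 CPM in YFP- replicates 1 to 4. The values of a pair lay close together, and pairs differed more from each other than the groups did. The means were 273.5 ± 37.2 CPM in YFP+ and 282.7 ± 48.9 CPM in YFP- cells (SD, n = 4), with a log2 fold change of -0.05 ± 0.18 (SE), which was 0.03 with library sizes alone in place of TMM factors.

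**Figure D1:**
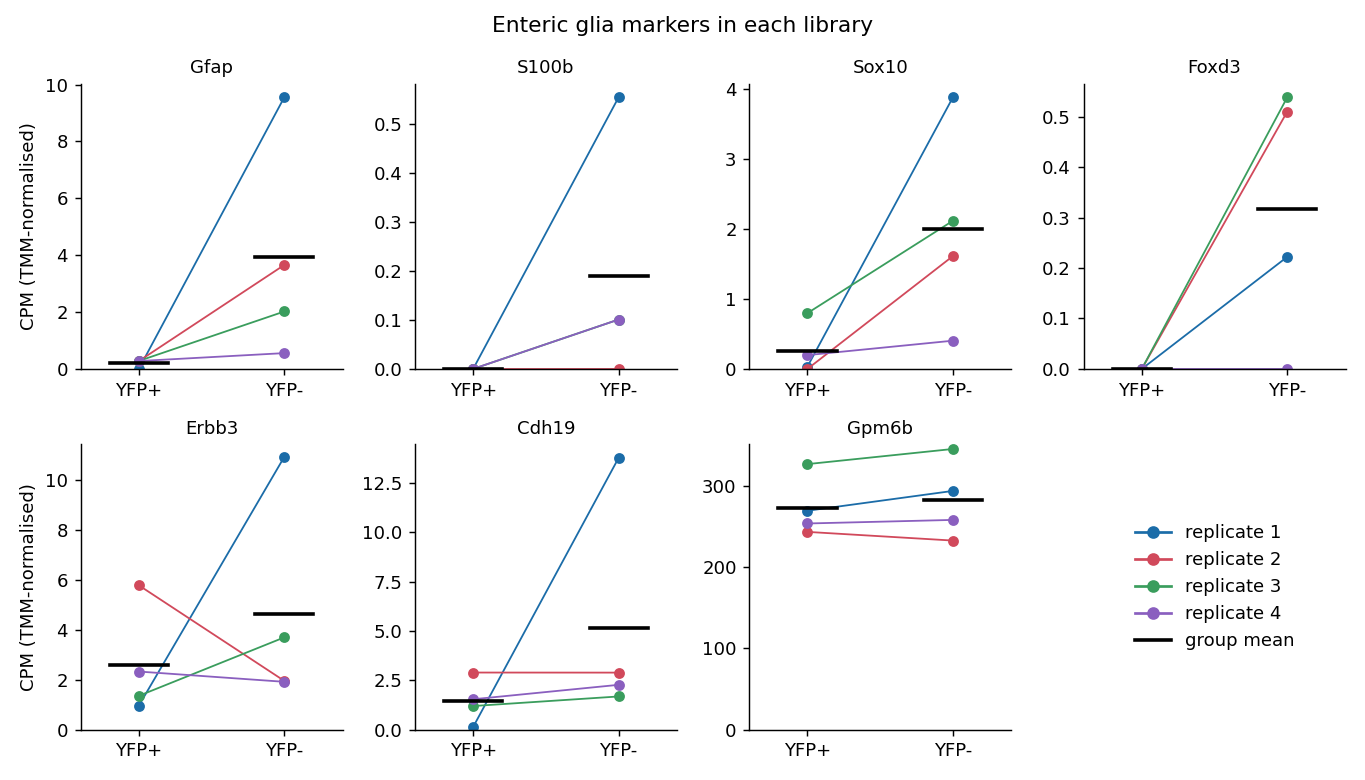
Level of each marker in CPM, scaled with TMM factors (vertical axis, starting at 0 and scaled per gene), in the 4 YFP+ and the 4 YFP- libraries (horizontal axis). Lines join libraries of equal replicate number and black bars are group means; Sox2, at 0 in all 8 libraries, is not drawn. Gfap, S100b, Erbb3 and Cdh19 have their highest point in YFP- replicate 1, as has Sox10, while Gpm6b lies between 232.8 and 345.6 CPM throughout.

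Levels can be compared between genes only per kilobase of exon. On that scale Gpm6b stood at 48.8 ± 6.65 CPM per kilobase in YFP+ and 50.5 ± 8.73 in YFP- cells (SD, n = 4). The next markers were more than an order of magnitude below it. Cdh19 was at 0.337 ± 0.266 CPM per kilobase in YFP+ and 1.21 ± 1.35 in YFP- cells, Gfap at 0.0493 ± 0.0329 and 0.936 ± 0.936, and Erbb3 at 0.434 ± 0.365 and 0.770 ± 0.713. Sox10 followed with 0.0844 ± 0.122 in YFP+ and 0.658 ± 0.474 in YFP- cells. Foxd3 and S100b had 0 in YFP+ cells and 0.137 ± 0.110 and 0.128 ± 0.168 CPM per kilobase in YFP- cells. The order among Cdh19, Gfap, Erbb3 and Sox10 in YFP- cells lay within their spread, as did that of Foxd3 and S100b. Because Gpm6b made up 96.4% of the summed CPM of the set, the sum over all 8 genes mainly reports Gpm6b, and sums without it are given below.

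**Figure D2:**
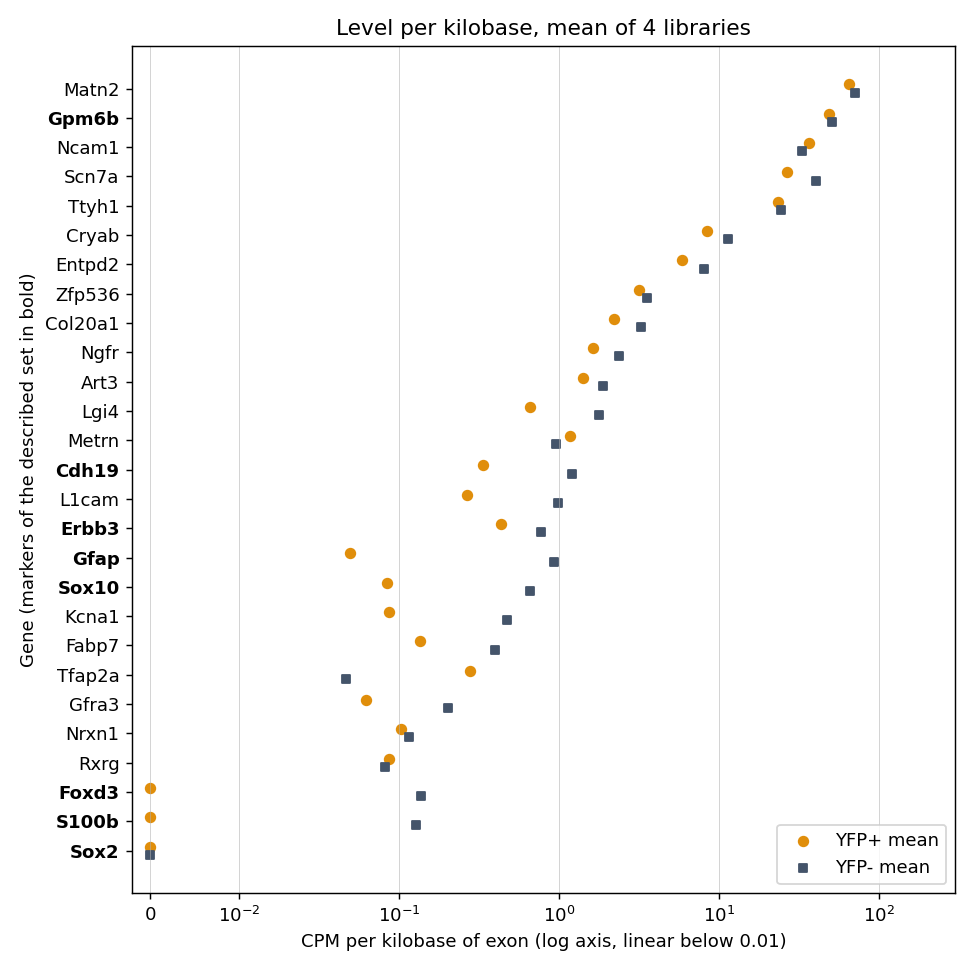
Mean level per kilobase of exon (horizontal axis, CPM per kilobase, log scale that is linear below 0.01) of the 8 markers (bold) and other enteric glia genes, for YFP+ (circles) and YFP- (squares) cells, 4 libraries each. Gpm6b lies among the most abundant genes with Matn2, Ncam1 and Scn7a, while Gfap, Sox10, Foxd3, S100b and Sox2 lie near the bottom, and YFP- values exceed YFP+ values for all markers but Sox2, at 0 in both.

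The low markers shared their highest library. YFP- replicate 1 was the highest of the 8 libraries for Gfap, S100b, Sox10, Erbb3 and Cdh19, that is 5 of the 7 markers with counts and 4 of the 5 tested. Of all genes tested, 10.9% had their highest level in that library. Foxd3 and Gpm6b were highest in YFP- replicate 3. Across the 8 libraries, as a description over points that share the libraries' depth and grouping, Pearson's r of log2 CPM was 0.880 for Gfap and Sox10, 0.844 for Gfap and Cdh19, 0.845 for Erbb3 and Cdh19 and 0.368 for Sox10 and Erbb3. For Gpm6b with the other 4 tested markers it was -0.0359 to 0.480.

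Without Gpm6b, the summed level of the other markers was 1.14, 8.96, 3.63 and 4.35 CPM in YFP+ replicates 1 to 4, against 38.9, 10.6, 10.2 and 5.25 CPM in YFP- replicates 1 to 4. YFP- replicate 1 held far more than any other library, and YFP+ replicate 1 the least. The means were 4.52 ± 3.27 CPM in YFP+ and 16.3 ± 15.3 CPM in YFP- cells (SD, n = 4), 3.60-fold lower in YFP+ cells and 1.54-fold lower without replicate 1. The sum of Gfap, Sox10, S100b, Foxd3 and Sox2, chosen after their values were seen, was 0.0344, 0.276, 1.08 and 0.474 CPM in YFP+ libraries, against 14.2, 5.78, 4.78 and 1.06 CPM in YFP- libraries. That sum was 13.9-fold lower in YFP+ cells over all libraries and 6.36-fold lower without replicate 1. Of the 8 markers, Gfap and Sox10 were lower in the YFP+ library of 4 of 4 pairs, as were 10.2% of all genes tested. None of the 8 was higher in 4 of 4 pairs, against 8.94% of all genes tested. Of the 5 tested markers, Gfap, Sox10 and Cdh19 had means at least 2-fold lower in YFP+ cells, against 1.99% of all genes tested. These shares are given beside the markers as a description, since the markers were chosen on this contrast. Gfap also passed the filter on low counts through its YFP- libraries alone.

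Summed markers of other cell types also differed between the libraries of a pair, in either direction. Leukocyte markers, with 10 of 10 genes detected, summed to 27.6 to 113 CPM in YFP+ and 23.2 to 49.4 CPM in YFP- libraries and were higher in the YFP+ library of 4 of 4 pairs. So were smooth muscle markers, with 793.5 to 1666 and 700.4 to 1224 CPM, and summed markers of interstitial cells of Cajal, with 33.7 to 55.9 and 29.1 to 41.7 CPM. Etv1 was the largest part of that last sum, which was nearly equal in pair 2, at 33.71 and 33.67 CPM. Kit, of the same list, was lower in the YFP+ library of most pairs. It was at 0.0688, 2.28, 0.799 and 7.27 CPM in YFP+ libraries, against 0.167, 9.35, 2.09 and 1.26 CPM in YFP- libraries. Summed fibroblast markers were lower in the YFP+ library of 4 of 4 pairs, but Pdgfra differed little, at 1307 to 2021 and 1360 to 1964 CPM. Summed pericyte markers were also lower in 4 of 4 pairs, with 1423 to 1772 CPM in YFP+ and 1666 to 1997 CPM in YFP- libraries. That fall was of Rgs5, at 694.4 to 1037 CPM in YFP+ and 898.7 to 1377 CPM in YFP- libraries. The other pericyte markers were higher in the YFP+ library of most pairs, and Cspg4, Notch3 and Abcc9 of all pairs. Melanocytes share the neural crest origin of glia and several of the glial marker genes. Their marker sum, most of it Mitf, was 16.2 to 35.8 CPM in YFP+ and 7.06 to 31.3 CPM in YFP- libraries, with Tyrp1 at 0 throughout. Epithelial markers summed to 13.2 to 185.6 CPM in YFP+ and 18.4 to 39.1 CPM in YFP- libraries, and endothelial markers to 27.6 to 141.3 and 38.1 to 99.2 CPM, each lower in 2 of 4 pairs. Mitochondrially encoded genes took 7.71% to 9.43% of counts in YFP+ and 8.07% to 12.4% in YFP- libraries. The part of these differences in the glial values was not tested.

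**Figure D3:**
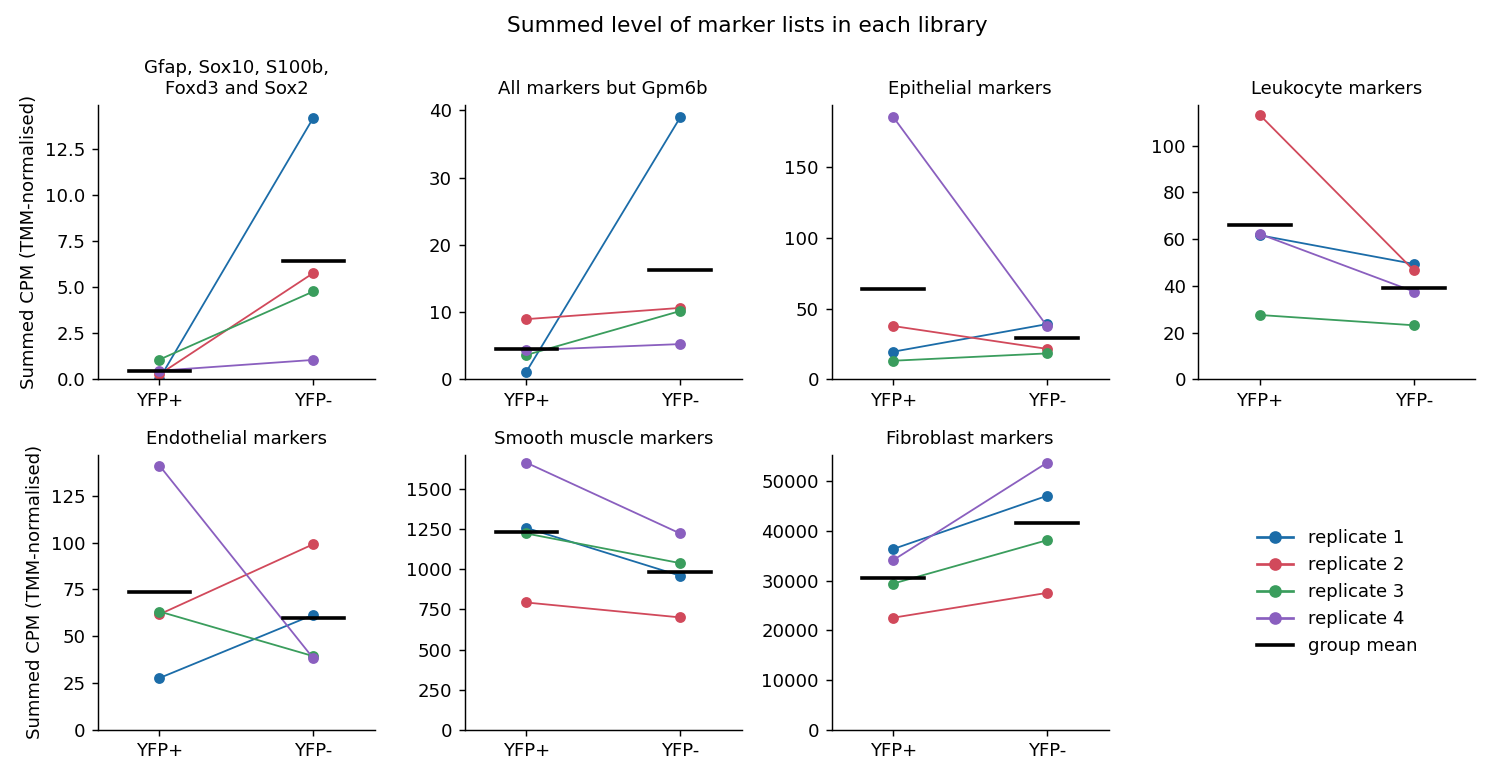
Summed CPM of marker lists (vertical axis, starting at 0 and scaled per panel) in YFP+ and YFP- libraries; lines join libraries of equal replicate number and black bars are group means. The sums of the low glial markers peak in YFP- replicate 1, at 14.2 and 38.9 CPM, whereas the epithelial and endothelial sums peak in YFP+ replicate 4, at 185.6 and 141.3 CPM.

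Replicate number was tested as a term in the fit over all genes. The levels in pairs of equal number were known when the markers were chosen, so the calls of markers are given as a description. Libraries of equal number resembled each other beyond their group, and the term was called for 39.3% of the genes tested (edgeR, adjusted p of 0.05 or below). Of the 5 tested markers, 1 was called. It was Gpm6b (adjusted p = 0.00161, edgeR), which was highest in the libraries of replicate 3 in both groups and lowest in those of replicate 2. The call was lost without replicate 3. Gfap, Sox10, Erbb3 and Cdh19 had adjusted p values of 0.774, 0.434, 0.672 and 0.796 (edgeR). They had 186 to 573 counts over all libraries, against 49401 for Gpm6b, and so less power for a call. For these 4 genes the YFP+ and YFP- libraries of replicate 1 lay far apart.

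Genes outside the set were read from related lists. Without a block for replicate number, edgeR called 0 genes of any list and 0 of all genes tested (lowest adjusted p = 0.99988), with 155 genes higher and 169 lower at an unadjusted p of 0.05 or below. DESeq2 called 0 higher and 2 lower in that design. With the block, 0.696% of genes tested rose and 1.59% fell in YFP+ cells, 111 and 253 genes, or 2.28% in either direction. With library sizes alone these were 210 and 154 genes, and the median log2 fold change of all genes was 0.09 in place of 0.005. Every gene that is said below to have risen or fallen did so in the blocked fit alone.

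Of 20 other enteric glia genes, 16 were tested, of which 2 fell and 0 rose, and 14 were not called. Without replicate 1 or without replicate 3, 1 gene of this list fell. Their median log2 fold change was -0.385 with the block, against 0.005 for all genes. Scn7a, a sodium-sensing channel of glia and nonmyelinating Schwann cells, was at 186.5, 233.1, 179.2 and 181.2 CPM in YFP+ replicates 1 to 4, against 323.0, 291.2, 258.8 and 309.2 CPM in YFP- replicates 1 to 4. Its groups did not overlap. Scn7a fell to 195.0 ± 25.6 CPM in YFP+ cells, against 295.5 ± 27.8 CPM in YFP- cells (SD, n = 4; log2 fold change -0.60 ± 0.08 SE, adjusted p = 0.000611, edgeR). It kept the call in all 9 other blocked settings. Per kilobase, Scn7a stood at 26.6 CPM in YFP+ and 40.3 CPM in YFP- cells. Gfap and Sox10 were far below it, at 0.936 and 0.658 CPM per kilobase in YFP- cells. Which cells of the gate the Scn7a transcripts came from was not tested.

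Matn2 and Ncam1, abundant genes for a matrix protein and an adhesion molecule, were at 405.4 and 317.1 CPM in YFP+ and 441.2 and 285.1 CPM in YFP- cells (adjusted p = 0.449 and 0.503, edgeR). Where 10.9% of all genes tested had their highest level in YFP- replicate 1, 10 of the 16 tested genes of this list did. Among them was L1cam, an adhesion molecule, with 22, 32, 50 and 72 counts in YFP+ and 320, 70, 105 and 33 counts in YFP- replicates 1 to 4. Lgi4, a secreted ligand that acts in Schwann cell maturation, had groups that did not overlap, at 3.04 ± 1.16 CPM in YFP+ and 8.13 ± 6.09 CPM in YFP- cells (SD, n = 4; adjusted p = 0.0964, edgeR). Fxyd3, on the opposite strand, overlaps 44.9% of its exonic bases, and whether reads were counted by strand was not given. L1cam and Lgi4 were chosen after their values were seen.

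Of 15 Schwann cell and myelin genes, 8 were tested, of which 1 fell and 0 rose. Their median log2 fold change was -0.35. Mbp, which encodes myelin basic protein, was at 17.7, 27.2, 14.4 and 16.6 CPM in YFP+ replicates 1 to 4, against 31.9, 36.3, 30.0 and 32.2 CPM in YFP- replicates 1 to 4. The groups did not overlap, and here YFP- replicate 1 did not stand out. Mbp fell to 18.99 ± 5.66 CPM in YFP+ cells, against 32.59 ± 2.67 CPM in YFP- cells (SD, n = 4; log2 fold change -0.82 ± 0.14 SE, adjusted p = 0.00422, edgeR). It missed the threshold without replicate 3 (adjusted p = 0.0556). Pmp22, a peripheral myelin protein, and Egr2, a regulator of myelination that is also an immediate early gene, were at 127.5 and 66.4 CPM in YFP+ and 146.8 and 91.1 CPM in YFP- cells (adjusted p = 0.176 and 0.0926, edgeR). Of the 8 tested genes, 1 was highest in YFP- replicate 1, against 10.9% of all genes tested.

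Of 19 enteric neuron genes, 9 were tested and 0 were called. Their median log2 fold change was -0.59, but it was 0.24 without replicate 4 and -0.30 without replicate 1. In the fit without the block it was -0.69, and -0.07 without YFP- replicate 4. Tubb3 and Nefl, pan-neuronal cytoskeletal genes named after their values were seen, had 0 counts in all libraries. Nefm, a neurofilament gene, was at 1.03, 0.414, 2.36 and 0.0395 CPM in YFP+ replicates 1 to 4, against 4.39, 18.0, 1.92 and 2.58 CPM in YFP- replicates 1 to 4 (adjusted p = 0.451, edgeR). Its highest library was YFP- replicate 2. Nefl and Nefm lie on opposite strands and share 1108 exonic bases, 32.8% of those of Nefl and 19.2% of those of Nefm. Whether reads were counted by strand was not given. Gm20388 overlaps Tubb3 on the same strand without sharing exonic bases. Nos1, which encodes neuronal nitric oxide synthase, was at 7.64 CPM in YFP+ and 5.12 CPM in YFP- cells, and Tac1, the substance P precursor gene, at 2.30 and 3.31 CPM (adjusted p = 0.309 and 0.819, edgeR). The neuropeptide gene Vip, chosen after its values were seen, had 0 counts in all YFP+ libraries, and 199 of its 201 counts lay in YFP- replicate 1, the library with the highest glial markers.

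All 19 ligands and receptors of glial development were tested, of which 3 rose and 1 fell. Without replicate 3, 1 of them rose, and without replicate 1, 0 fell. Their median log2 fold change was 0.15 with the block and 0.04 without replicate 2. In the fit without the block it was 0.16, and it turned to -0.04 without YFP+ replicate 2. Ednrb, the endothelin receptor on which enteric neural crest depends, was at 385.3, 240.7, 292.6 and 332.2 CPM in YFP+ replicates 1 to 4, against 277.3, 160.4, 190.8 and 204.1 CPM in YFP- replicates 1 to 4. The YFP+ library was the higher in 4 of 4 pairs, and the groups overlapped. Ednrb rose by 0.59 ± 0.06 on the log2 scale (SE; adjusted p = 0.000138, edgeR) and kept its call in all 9 other blocked settings.

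Nrg1, the neuregulin ligand of ERBB3, rose to 1058 ± 139.6 CPM in YFP+ cells, against 792.6 ± 149.9 CPM in YFP- cells (SD, n = 4; log2 fold change 0.43 ± 0.08 SE, adjusted p = 0.00659, edgeR). It was higher in the YFP+ library of 4 of 4 pairs and missed the threshold without replicate 3 (adjusted p = 0.110). Gdnf, a growth factor of enteric neural precursors, rose to 81.8 ± 29.9 CPM in YFP+ cells, against 59.4 ± 15.0 CPM in YFP- cells (SD, n = 4; adjusted p = 0.0256, edgeR; 0.165 without replicate 1). It was named after its values were seen. Ece1, which encodes the enzyme that activates endothelins, was at 222.2 CPM in YFP+ and 183.8 CPM in YFP- cells (adjusted p = 0.0517, edgeR). Erbb2, the partner of ERBB3, named after its values were seen, was at 27.8 ± 7.08 CPM in YFP+ and 25.7 ± 9.73 CPM in YFP- cells (SD, n = 4; adjusted p = 0.808, edgeR). Per kilobase, Erbb2 stood at 5.34 CPM in YFP+ and 4.93 CPM in YFP- cells, above Erbb3 in both groups.

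**Figure D4:**
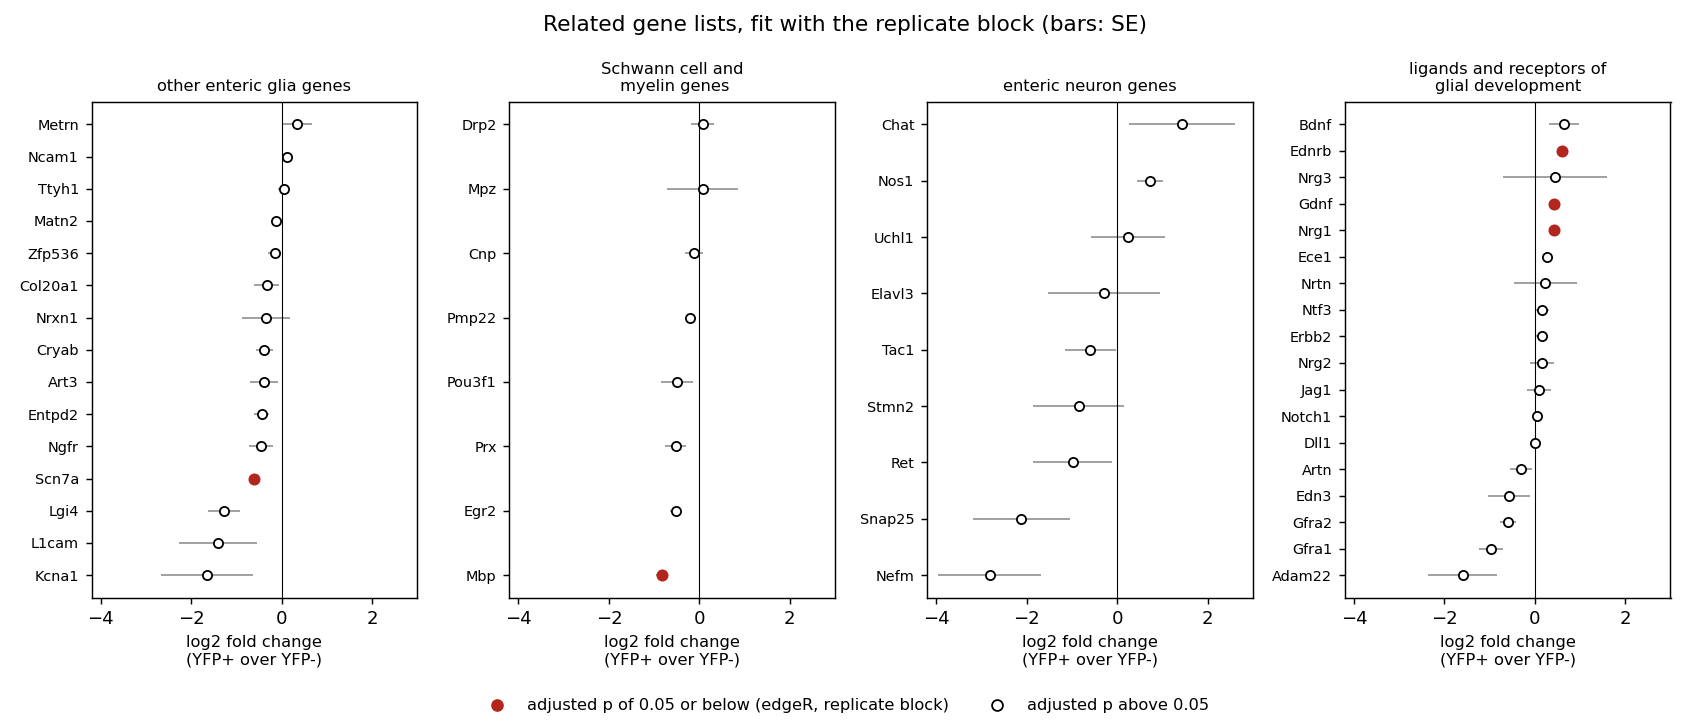
Log2 fold change of YFP+ over YFP- cells (horizontal axis; points are estimates and bars SE, edgeR with a block for replicate number) for tested genes of 4 lists related to enteric glia. Filled points have an adjusted p of 0.05 or below: Scn7a and Mbp lie left of 0, and Ednrb, Nrg1 and Gdnf right of it.

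Genes whose pattern was most like that of the set were sought among 13243 tested genes with an official symbol, by Pearson's r of log2 CPM with the log2 summed level over the 8 libraries. The 10 most alike were Otud6b, Cd1d1, Rnf214, Tgtp2, Plcg1, Kpna6, Med22, Rnaseh2a, Mphosph9 and Pcbp4, with r of 0.97 for Otud6b and 0.93 for Pcbp4. Because Gpm6b sets that sum, these are in effect the genes most like Gpm6b, which itself correlated with the sum at 0.97. With Gpm6b left out, a choice made after seeing the data, 0 of the 10 recurred. The genes most like the remaining sum included Gpr137c, Ptprz1, Rorb, L1cam, Psmg1, Klhl8, Epb41l5, Dck and Alg5, with r of 0.96 for Gpr137c and 0.89 for Alg5. Of these, L1cam was on the list of other enteric glia genes. By rank correlation, 1 of 10 and 4 of 10 genes were shared with the 2 lists. The points share the outlying YFP- replicate 1, and r is a description of these libraries.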

How the data were processed

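Total RNA of sorted cells was made into libraries with a stranded low-input total RNA kit and sequenced on an Illumina NextSeq, per the labels' protocols. The submitters' processing notes name cutadapt 3.4, STAR 2.7.3a, featureCounts 2.0.1, DESeq2 and the mouse build GRCm38 (mm10). Neither the strand setting nor the annotation release used for counting was given. The authors deposited whole-number read counts for each gene in each library. A second set of deposited columns is a score, normalised by the authors: it equals the counts over DESeq2's size factors within 0.499995, as rounding to whole numbers would give.

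All results were computed from the deposited counts. Of 53801 gene identifiers, 53706 matched GENCODE M21, which gave GRCm38 coordinates and exon lengths. Library totals were 12481608 to 29385718 counts. Genes were filtered with filterByExpr by group (15945 left), scaled with TMM factors and tested with the two-sided quasi-likelihood test of edgeR 4.0.16 (R 4.3.3, robust), with Benjamini-Hochberg adjustment over all genes tested and a threshold of 0.05. CPM values are given as mean ± SD. The fit had group alone, or group and replicate number as a block. Deviations from group means correlated at 0.233 to 0.487 in the 4 pairs of libraries with equal number and at most at 0.0456 between unequal numbers, so the numbers were taken to pair the samples. That pairing comes from the data, since the labels do not say what a number marks. Calls were therefore read from the blocked fit. The scripts were tested on simulated data.

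The markers and gene lists were chosen with earlier results of these data known. From each related list, up to 3 called genes with the lowest adjusted p and the 3 most abundant were named, and genes outside this rule are marked in the text. Some genes that the rule took are counted in their lists and not reported here. Other settings were RLE factors, library sizes alone, DESeq2 1.42.0, a filter that kept genes with any count (minimum 1), a minimum of 2 CPM in 4 libraries, and each library or pair left out. Correlations used log2 CPM with a prior count of 2. Floors of 3 counts cover counting error only. Promoter sequences are from RefSeq, GRCm38.p6.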

Additional observations from a re-analysis of the deposited data

Results flagged for a closer look

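In 42 groups of 4 libraries, the gap between an extreme library and its nearest neighbour was divided by the group's range and compared with Dixon's 95% critical value of 0.829. The ratio was above it in 5 groups. Chance gives about 1 in 20 for independent, normally distributed values. CPM of genes with few counts need not be so distributed, and several of these genes share libraries. The number of groups above the value is therefore not read as an excess. Of Gfap in YFP+ cells, replicate 1 at 0 CPM lay below the others at 0.276 to 0.279 CPM (ratio 0.987). With 0, 4, 7 and 7 counts this is a gap of a few counts. Of Cdh19 in YFP- cells, replicate 1 at 13.8 CPM lay above the others at 1.68 to 2.89 CPM (ratio 0.900). The same library was far above the others in the summed level without Gpm6b, at 38.9 against 5.25 to 10.6 CPM (ratio 0.840). Scn7a in YFP+ cells had its highest library in replicate 2, at 233.1 against 179.2 to 186.5 CPM (ratio 0.865). Nefm in YFP- cells had its highest library in replicate 2, at 18.0 against 1.92 to 4.39 CPM (ratio 0.847).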

How the results depend on the processing

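The log2 ratio of the summed level was -0.105 with all markers, -1.85 without Gpm6b (-0.945 without YFP- replicate 1) and -3.80 for Gfap, Sox10, S100b, Foxd3 and Sox2. For the last sum, the other setting run was without replicate 1. The all-marker ratio stayed below 0 but came close to it, at -0.009 without YFP- replicate 3 and -0.023 with library sizes alone. Fits with the replicate number as a block, for the pairing of the samples, changed the counts of calls: 111 genes rose and 253 fell, against 0 and 0 without it. Beside the block, 99 rose and 265 fell with RLE factors, 210 and 154 with library sizes alone, 168 and 357 with DESeq2, 253 and 420 without a count filter and 131 and 285 with the minimum of 2 CPM. Without pairs 1, 2, 3 or 4, 77, 130, 38 and 47 rose and 129, 296, 119 and 120 fell. DESeq2 without the block called 2 lower.

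With the block, of other enteric glia genes, 2 fell with TMM factors, RLE factors and the minimum of 2 CPM, 1 with library sizes alone, 3 with DESeq2 and 3 without a count filter. Leaving out a pair gave 1 to 3. Of Schwann cell and myelin genes, 1 fell with TMM factors, RLE factors, library sizes alone and the minimum of 2 CPM, 2 with DESeq2 and without a count filter, where 1 also rose; leaving out a pair gave 0 to 1. Of enteric neuron genes, 2 fell without a count filter and 1 without pair 3. Of ligands and receptors, 3 rose with TMM and RLE factors and 4 with library sizes alone, DESeq2, no count filter and the minimum of 2 CPM; leaving out a pair gave 1 to 3. Of the same list, 1 fell with TMM factors, RLE factors, library sizes alone and the minimum of 2 CPM, and 2 with DESeq2 and without a count filter; leaving out a pair gave 0 to 2. The replicate number term was called for 1 of 5 markers in every setting except without pair 3, with 0.

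Blocked settings other than TMM factors, and sums without Gpm6b, were added after seeing the data. Leaving out a pair leaves 3 against 3 libraries. Gfap and Sox10 could not be fitted with the minimum of 2 CPM, nor Sox10 with the block without pair 3. With the block, the Erbb3 log2 fold change was 0.13 without pair 1 and -1.55 without pair 2. The median of Schwann cell and myelin genes was -0.11 with the block and no count filter, against -0.35 with the filter. The cause of these shifts was not tested. Depth limits S100b, Foxd3 and Sox2, whose counts stayed at 0 in every YFP+ library.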

Other observations

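Several genes of glia and myelin outside the set also had their highest level in YFP- replicate 1. Of the tested genes, 10 of 16 other enteric glia genes were highest there by CPM, but 1 of 8 Schwann cell and myelin genes and 2 of 9 enteric neuron genes. The share over all genes tested was 10.9%. Gjc3, which encodes a connexin of myelinating glia, had 55 of 62 counts there, the myelin gene Mal 89 of 132, the potassium channel gene Kcna1 102 of 200 and the fatty acid binding protein gene Fabp7 27 of 54. All but Kcna1 were too low to be tested. Other genes of these lists that were too low to be tested, among them Fa2h, Ncmap, Dhh and Tfap2a, had their highest level in YFP+ replicate 2. These genes were chosen after their values were seen, and no difference between libraries was tested for them.

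The GDNF family receptors Gfra1 and Gfra2 were lower in the YFP+ library of 4 of 4 pairs without passing the test. They and Ret were named after their values were seen. Gfra1 was at 5.12 ± 2.65 CPM in YFP+ and 10.1 ± 4.94 CPM in YFP- cells, and Gfra2 at 12.03 ± 6.85 CPM in YFP+ and 19.1 ± 12.7 CPM in YFP- cells (SD, n = 4; adjusted p = 0.0786 and 0.132 with the block, edgeR). Ret, the receptor that signals with them, was at 0.546 ± 0.377 CPM in YFP+ and 1.09 ± 0.552 CPM in YFP- cells (SD, n = 4; adjusted p = 0.796 with the block, edgeR).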
